A study of Mus musculus with 4 samples.

Results

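The rodent-specific Sfmbt2 intron miRNAs are the mouse miRNAs numbered miR-297, miR-466, miR-467 and miR-669, most of whose hairpin genes are packed into 1 intron of the Polycomb gene Sfmbt2. They were taken by name: every sequence of the brain table whose miRNA name has 1 of these 4 numbers followed by a letter or a hyphen, with a joined name such as miR-669a-3p/miR-669o-3p counted once. The rule found 53 of the 1029 miRNA names and 447 of the 85704 sequences in the table. The names comprised 4 of miR-297, 17 of miR-466, 10 of miR-467, 21 of miR-669 and 1 that joined miR-466 with miR-669.

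The samples were 4 small RNA libraries from the brains (cortex and hippocampus together) of C57BL/6J males, 2 from mice aged 2 months and 2 from mice aged 18 months. The labels name no mutation or treatment, and age is the only difference they give between the groups. Short RNAs bound to Argonaute (Ago) proteins, the RISC-bound short RNAs or R-sRNAs, had been pulled down with a GW182-derived peptide and sequenced (Ago-RP-Seq). The comparison asked how the R-sRNAs of the brain differ between young and old mice, and each sequence carries the study's 6mer seed viability, the mean viability, in percent of a control, of mouse cell lines given an siRNA with that seed. The labels number the replicates but do not say that each is a separate animal, so the p-values measure the spread between these samples.

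A miRNA is cut from a hairpin, and its 5p or 3p arm is loaded into Ago, where the seed (bases 2 to 7 or 2 to 8 from the 5′ end) chooses the mRNAs to be silenced. Sfmbt2 encodes a Polycomb-group protein and is imprinted, with expression from the paternal copy in the early embryo and placenta. Its large intron holds a block of tandem duplications that arose in the rodent lineage, so many of its hairpins are near copies of each other and have no counterpart in humans. The cluster is known best from embryonic stem cells and placenta.

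In the GRCm38 annotation, Sfmbt2 lies at chr2:10370510-10595253 on the plus strand. Of the 81 annotated hairpins whose gene name has 1 of the 4 numbers, 71 lay within it. Every one of them was in intron 10 (chr2:10461473-10523944), on the same strand as the gene and overlapping none of its exons. They occupied 51.6 kb of the 62.5 kb of that intron. The remaining 10 hairpins, among them Mir466k and Mir467g, were elsewhere in the genome. Hairpins annotated under Gm gene names are not in these counts. Some of them lie inside Sfmbt2, and they are included where sequences are matched to hairpins below.

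The most abundant sequence under a name shows what was bound to Ago. The 5p sequences of miR-467 are shown first, since they carried the largest share of the reads; capitals mark bases 2 to 8, the seed.
miR-467a-5p: tAAGTGCCtgcatgtatatgcg
miR-467b-5p: tAAGTGCCtgcatgtatatg
miR-467c-5p: tAAGTGCGtgcatgtatatgt
miR-467d-5p: tAAGTGCGcgcatgtatatgcg
miR-467e-5p: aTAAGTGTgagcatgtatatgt
The leading miR-467b-5p sequence was the first 20 bases of that of miR-467a-5p, and both occurred in the same 12 hairpins, so the reads of these 2 names cannot be assigned to separate genes. miR-467e-5p began 1 base earlier in the shared motif, so its bases 2 to 8 were TAAGTGT.

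The leading 5p and 3p sequences of the other 3 numbers, which are shown for their repeated dinucleotides, were as follows.
miR-669a-5p/miR-669p-5p: aGTTGTGTgtgcatgttcatgt
miR-669c-5p: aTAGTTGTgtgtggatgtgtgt
miR-669d-5p: aCTTGTGTgtgcatgtatatgt
miR-669a-3p/miR-669o-3p: aCATAACAtacacacacacgtat
miR-669f-3p: cATATACAtacacacacacgtat
miR-466c-5p: gATGTGTGtgtgcatgtacatat
miR-466a-3p/miR-466e-3p: aTACATACacgcacacataaga
miR-466d-3p: tATACATAcacgcacacatagt
miR-466h-3p: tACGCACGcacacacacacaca
miR-297c-5p: aTGTATGTgtgcatgtacatgt
miR-297b-3p/miR-297a-3p/miR-297c-3p: aTATACATacacacatacccat
Most leading 5p sequences had a run of TG and most leading 3p sequences a run of CA. TGTGTG was found in 21 of the 27 leading 5p sequences and CACACA in 18 of the 21 leading 3p sequences. None of the 5 leading miR-467 5p sequences shown above had TGTGTG. Their names held a mean of 445 of the 626 CPM of 5p reads at 2 months and 186 of 272 CPM at 18 months. Searched as written on the sequenced strand, at least 1 of these 2 motifs stood in 44 of the 53 members (83.0%), against 16 of the 976 other miRNA names in the table (1.64%). The median GC content of the leading sequences was 36.4% in the members and 51.1% in the other names.

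Since the sequences repeat, most reads could not be given to a single hairpin. Of the member reads, 84.6% to 86.6% per library matched only hairpins inside Sfmbt2, 0.482% to 0.985% matched hairpins both inside and outside it, and 12.6% to 14.7% matched no annotated miRNA hairpin without a difference. No member sequence matched only hairpins outside Sfmbt2. Sequences found in 2 or more hairpins made up 63.8% to 65.1% of the member reads, and those found in exactly 1 made up 21.6% to 22.6%.

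The members that lay in a single hairpin can be placed. miR-467d-5p was at chr2:10507640-10507661, miR-467e-5p at chr2:10505731-10505752, miR-669c-5p at chr2:10509319-10509340 and miR-669f-3p at chr2:10467285-10467307, each in intron 10 on the plus strand. The leading sequence of miR-669a-3p/miR-669o-3p was found in 13 hairpins and that of miR-466a-3p/miR-466e-3p in 15, all inside Sfmbt2. The leading read named miR-466k was found in 10 hairpins of the cluster and not in the gene Mir466k on chromosome 3. The only sequence named miR-467g had no exact match, nor did the leading sequences of miR-466d-3p, miR-466g, miR-466f-5p and miR-466o-3p. Of the miR-466d-3p reads, 59.6% matched an annotated hairpin exactly.

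The members were scarce R-sRNAs. The 4 libraries held 9067007 to 11388999 reads, of which the members made up 4771 to 12545. The most abundant name, miR-467a-5p, stood at rank 221 of the 1029 names by mean level, and only 2 names, miR-467a-5p and miR-669a-3p/miR-669o-3p, averaged at least 100 CPM, the unit of the deposited table, in which 1 CPM stood for 9.07 to 11.4 reads. These 2 made up 47.7% of the mean member level, 14 further names between 10 and 100 CPM made up 43.2%, and 20 names averaged under 1 CPM. Each read is 1 short RNA, so levels of different miRNAs are compared without a correction for length.

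The summed level of the members was lower in old brains, at a ratio of 0.479 to that in young brains. The 2-month replicates had 969 CPM (replicate 1) and 1101 CPM (replicate 2), and the 18-month replicates 466.02 CPM (replicate 1) and 526 CPM (replicate 2). Both old libraries lay below both young ones, and the means were 1035 ± 93.6 CPM (young) and 496.1 ± 42.5 CPM (old; SD, n = 2 each). As a share of all miRNA reads this was 0.1003% (95% Wilson interval 0.0984% to 0.102%) and 0.114% (0.112% to 0.116%) at 2 months against 0.0482% (0.0469% to 0.0496%) and 0.0545% (0.0530% to 0.0561%) at 18 months. The intervals cover counting error only. In bulk tissue, fewer cells that express a miRNA and less of it per cell cannot be told apart.

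The ratio of old to young differed among the 4 numbers, a difference that was not tested. Summed miR-467 was 444 and 518 CPM at 2 months against 203 and 211 CPM at 18 months, a ratio of 0.429. miR-669 stood at 374 and 413 CPM against 173 and 205 CPM, a ratio of 0.480, and miR-466 at 127 and 141 CPM against 68.8 and 84.7 CPM, a ratio of 0.573. For these 3 the old libraries lay below the young ones. miR-297, the least abundant, was measured at 24.03 and 27.7 CPM against 20.4 and 25.7 CPM, and its groups overlapped. Under median-of-ratios scaling, the log2 ratio of miR-297 went from -0.17 to 0.04, so its direction is not settled. No test was run on a sum, since with 2 libraries a group the smallest two-sided p of an exact permutation test is 0.3333.

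Single miRNAs were tested with limma on log2(CPM + 1) across the 456 names that averaged at least 10 CPM, of which 16 were members; a call here is an unadjusted p under 0.05. Of these 16 members, 12 were called lower at 18 months and none higher, against 12.1% called lower and 4.17% called higher among all 456 (0.219% passed an adjusted p). The 16 passed a filter on their mean, so the 12 do not stand for all 53 names. The called miR-466h-3p and miR-467a-3p and the uncalled miR-466c-5p averaged under 10 CPM at 18 months. They passed the filter only through the 2-month libraries. On the CPM scale the median log2 change was -1.10 over the 16 and -0.22 over all 456. This lower median is not a lower total, since all miRNA reads summed to a mean of 966224 CPM at 2 months and 966117 CPM at 18 months. After rescaling by the median of ratios the median over all names was -0.01 and that over the members -0.91, and 9 of the 16 were called lower, none higher, against 5.48% called lower and 8.55% called higher among all names. The split of all calls turned with the scaling: 25.7% of them were higher at 18 months on the CPM scale and 60.9% after rescaling.

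No member passed a Benjamini-Hochberg adjusted p of 0.05 over the 456 names in limma (lowest adjusted p 0.0968) or with edgeR on recovered whole reads (quasi-likelihood test), which called 9 members lower at unadjusted p, against 5.04% of all names. DESeq2 likewise called 9 lower, against 5.7%, and 5 of these passed its adjusted p: miR-467a-5p (adjusted p 0.0074), miR-669c-5p and miR-669a-5p/miR-669p-5p (both 0.0188), miR-669f-3p (0.0334) and miR-467e-5p (0.0388). DESeq2's background was 2.19% of the 456 names lower at adjusted p. The sign of the change was negative for each of the 16 members under either other pseudocount, rescaling, edgeR, DESeq2 and the removal of any 1 library. Most of the 456 names were negative on the CPM scale too: 312 in the main fit and 300 to 320 with 1 library removed. The number was 234 after rescaling, 226 with edgeR and 231 with DESeq2.

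**Figure D1:**
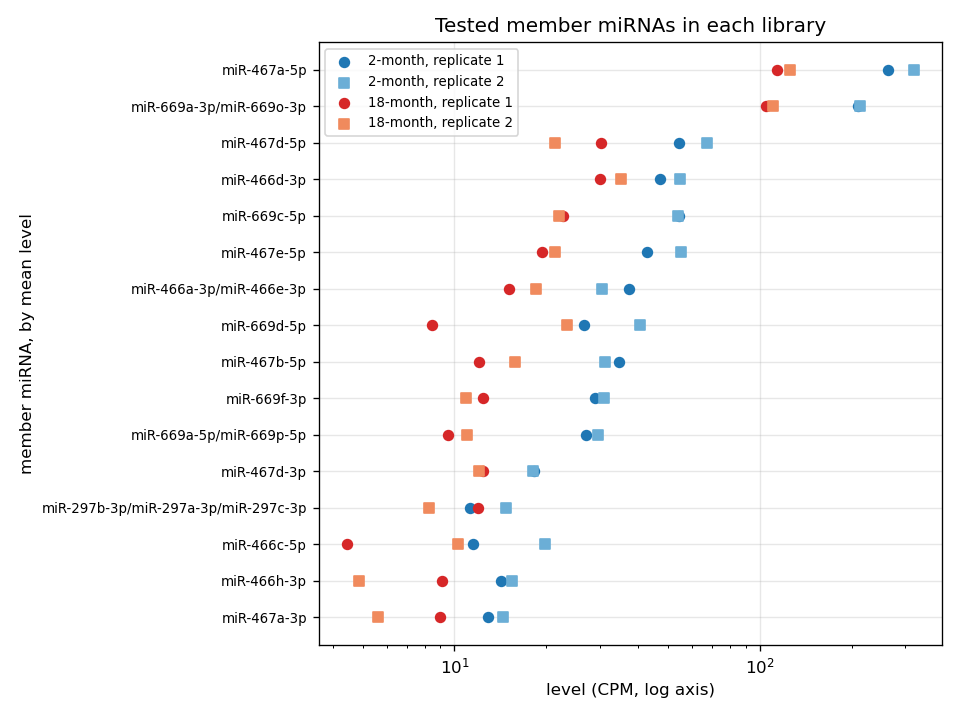
Level in CPM (log axis) of the 16 tested member miRNAs in each of the 4 libraries, ordered by mean level. Blue points are the 2-month and red or orange points the 18-month libraries; the old libraries lie to the left of the young ones in 15 of the 16 rows, the exception being miR-297b-3p/miR-297a-3p/miR-297c-3p.

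Among the arms of the 4 numbers, miR-467 5p held the most reads, with sums of 408 and 483 CPM at 2 months against 180 and 191 CPM at 18 months. miR-467a-5p alone was at 262 and 319 CPM in young brains against 114 and 125 CPM in old ones, with no overlap. Its log2 change of -1.27 (SE 0.22, unadjusted p 0.000948 and adjusted p 0.0968, limma) was the sixth most negative of the 456 names. miR-467d-5p, which has the 6mer seed of miR-467a-5p, was at 54.6 and 67.3 CPM against 30.3 and 21.3 CPM (log2 change -1.22, SE 0.28).

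Levels of miR-467e-5p were 42.7 and 55.3 CPM at 2 months against 19.4 and 21.3 CPM at 18 months (log2 change -1.22, SE 0.26). miR-467b-5p stood at 34.6 and 31.2 CPM against 12.01 and 15.8 CPM (log2 change -1.20, SE 0.27). All 4 of these 5p names were called lower, and in none did an old library reach a young one. The fifth, miR-467c-5p, averaged 8.90 CPM and was under the filter; it stood at 14.02 and 9.48 CPM against 4.92 and 7.17 CPM.

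The opposite arms of miR-467 hairpins were less abundant, and their log2 differences were nearer to 0, a contrast that was not tested. miR-467a-3p was at 12.9 and 14.4 CPM at 2 months against 8.98 and 5.63 CPM at 18 months (log2 change -0.85, SE 0.33, unadjusted p 0.0428). It was called on the CPM scale but not after rescaling (p 0.112), nor without 2-month replicate 1 (p 0.0629), 2-month replicate 2 (p 0.108) or 18-month replicate 2 (p 0.225). miR-467d-3p stood at 18.2 and 18.1 CPM against 12.4 and 12.02 CPM, with a log2 difference of -0.54 (SE 0.27) that did not pass (unadjusted p 0.0882).

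Among the miR-669 members both arms were prominent. miR-669a-3p/miR-669o-3p was at 210 and 214 CPM in young brains against 105 and 110 CPM in old ones, and the replicates lay close together in both groups (log2 change -0.97, SE 0.20, unadjusted p 0.00257). miR-669c-5p was at 54.3 and 54.2 CPM against 22.7 and 21.9 CPM (log2 change -1.24, SE 0.23). Both were called lower in each of limma on either scale, edgeR and DESeq2.

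miR-669a-5p/miR-669p-5p, the opposite arm of miR-669a-3p, was at 27.0 and 29.4 CPM against 9.55 and 11.0 CPM. Its log2 change of -1.37 (SE 0.27) was the most negative of the tested members and the fourth of the 456 names. miR-669f-3p was at 28.8 and 30.8 CPM against 12.4 and 10.9 CPM (log2 change -1.29, SE 0.26). The replicates of miR-669d-5p lay far apart in both groups. It was at 26.6 and 40.5 CPM against 8.42 and 23.4 CPM without overlap, and its log2 difference of -1.16 (SE 0.49) did not pass (unadjusted p 0.0537), though it did without 2-month replicate 1 (p 0.0413) or 18-month replicate 2 (p 0.0051). It was -0.87 (p 0.180) without 2-month replicate 2 and -0.47 (p 0.259) without 18-month replicate 1.

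Of the 4 tested miR-466 members, 3 were 3p arms. miR-466d-3p was at 47.1 and 54.8 CPM at 2 months against 30.1 and 35.2 CPM at 18 months, a log2 change of -0.63 (SE 0.24, unadjusted p 0.0387) that was not called after rescaling (p 0.130), nor without 2-month replicate 1 (p 0.0713), 2-month replicate 2 (p 0.179) or 18-month replicate 1 (p 0.126). miR-466a-3p/miR-466e-3p was at 37.2 and 30.4 CPM against 15.04 and 18.5 CPM (log2 change -0.97, SE 0.27) and was called on both scales, but not without 2-month replicate 1 (p 0.0581). miR-466h-3p was at 14.2 and 15.5 CPM against 9.08 and 4.85 CPM (log2 change -1.04, SE 0.36, unadjusted p 0.0268), and it too was not called after rescaling (p 0.0643), nor without 2-month replicate 2 (p 0.066) or 18-month replicate 2 (p 0.154).

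miR-466c-5p, a 5p member of the same number, was at 11.5 and 19.8 CPM against 4.45 and 10.3 CPM, so that the old libraries lay below the young ones by less than the young ones differed. Its log2 difference of -1.05 (SE 0.46) did not pass (unadjusted p 0.0612), though it did without 2-month replicate 1 (p 0.0275) or 18-month replicate 2 (p 0.0241). Without 2-month replicate 2 it was -0.68 (p 0.223), and without 18-month replicate 1 -0.52 (p 0.313). The joined 3p name of miR-297 was at 11.3 and 14.8 CPM against 11.9 and 8.27 CPM, with overlap and an unadjusted p of 0.331. The leading 5p name of miR-297, miR-297c-5p, was under the filter at 7.15 and 8.60 CPM against 4.54 and 12.6 CPM.

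**Figure D2:**
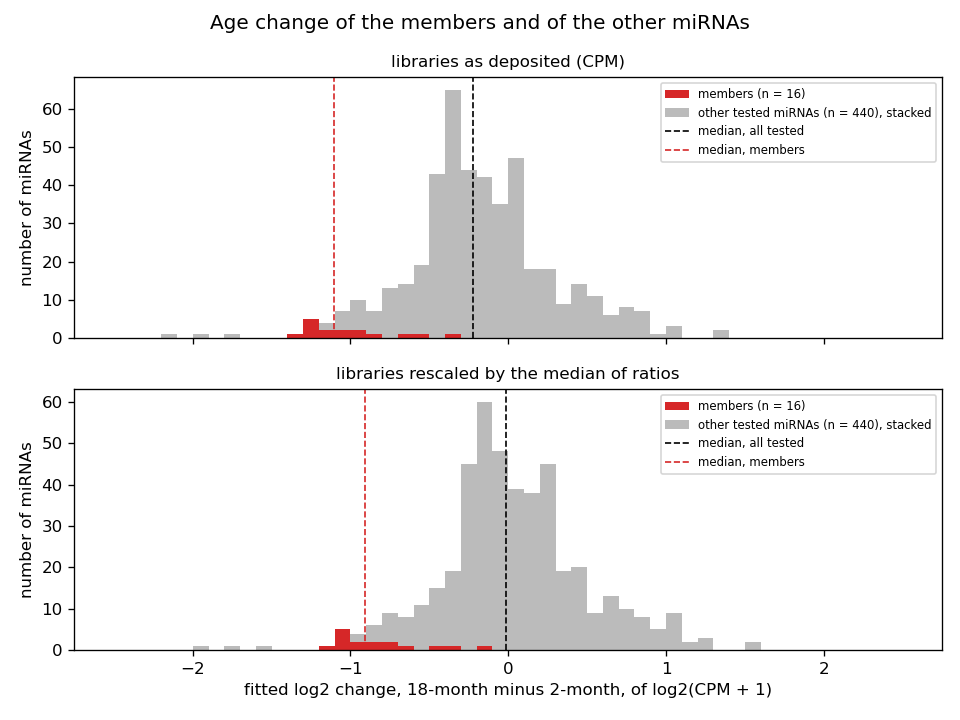
Histogram of the fitted log2 change (18-month minus 2-month, of log2(CPM + 1)) of the 456 tested miRNAs, with the 16 members in red and the other 440 stacked on them in grey, on the CPM scale (top) and after rescaling (bottom). Dashed lines are medians; that of the members lies at -1.10 against -0.22 in the top panel and at -0.91 against -0.01 in the bottom panel.

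The 37 members under the filter were counted without a test. Over all 53 names, the mean was lower at 18 months in 44 and higher in 9, and the old libraries lay wholly below the young ones in 29 and wholly above them in 3. The background for these counts over all 1029 names was 29.8% wholly below and 12% wholly above. For the sign, the fit with no filter gave a negative log2 change in 45 of the 53 members and in 659 of all 1029 names. Among the 16 tested members 15 lay wholly below, with a background of 41.4% among the 456.

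The 3 names that lay wholly above were picked out after their values were seen: miR-669i, miR-669k-3p and miR-669h-3p. miR-669i was at 2.097 and 4.21 CPM at 2 months and at 5.67 and 7.83 CPM at 18 months, miR-669k-3p at 0.763 and 0.351 against 0.851 and 2.54 CPM, and miR-669h-3p at 0.476 and 0.527 against 0.757 and 1.66 CPM. The last 2 rest on 4 to 23 reads per library. miR-669i and miR-669k-3p share a seed, which is in capitals here.
miR-669i: tGCATATAcacacatgcataca
miR-669k-3p: tGCATATAcacgcatgcaaac
With no filter on low values, 23 of the 53 members were called lower, with 9.04% of all 1029 names called lower, and 1, miR-669i, was called higher (unadjusted p 0.0453), with 3.11% of all names called higher.

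The same test was run on the sequences themselves. Of the 95 member sequences that averaged at least 1 CPM, 46 were called lower and 1 higher at unadjusted p, against 4.23% lower and 5.87% higher among all 14287 sequences tested. None passed an adjusted p of 0.05 in limma, against 0.042% of all sequences, or in edgeR, which called 42 lower at unadjusted p, against 3.79% of all sequences. Lower calls were fewer, among the members and among all sequences, without 18-month replicate 1, which leaves 1 library at 18 months. The median log2 change of the 95 was then -0.79, against -0.82 with all 4 libraries. The lower calls included 6 of the 10 tested sequences named miR-467a-5p, 5 of the 8 of miR-669a-3p/miR-669o-3p and all 4 of miR-669a-5p/miR-669p-5p and of miR-669f-3p, but only 1 of the 6 of miR-466d-3p.

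The higher call was the miR-669i sequence printed above, at 0.191 and 0.176 CPM at 2 months against 2.55 and 3.31 CPM at 18 months (log2 change on the log2(CPM + 1) scale 1.73, SE 0.35, unadjusted p 0.000694 and adjusted p 0.185). Each young value stands for 2 reads, under the limit of 3 reads that a count of 0 allows. The sequence passed the filter of 1 CPM on the mean only through the 18-month libraries, the group in which it was called higher.

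Reads that occur in exactly 1 hairpin allow the change to be read along the intron. Of 21 hairpins with such reads, 12 averaged at least 1 CPM, from 96.7 kb to 147 kb after the Sfmbt2 start. In 10 of these the old libraries lay below the young ones, in 1 above and in 1 they overlapped, and the median log2 ratio of mean CPM was -1.25. Over all 1029 miRNA names, with no filter on level, 29.8% lay wholly below and 12% wholly above. Among the 456 names of at least 10 CPM, 41.4% lay wholly below. The share at the 1 CPM limit of these hairpins was not taken. The range over the hairpins was -2.502 to 1.61.

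Near the start of the block, Mir669f (chr2:10467229-10467349) had 30.2 and 34.6 CPM at 2 months against 13.3 and 12.8 CPM at 18 months. About 40 kb further on, Mir467e had 40.4 and 51.3 CPM against 18.5 and 20.7 CPM, Mir467d 40.8 and 50.05 CPM against 18.5 and 15.4 CPM, and Mir669c 52.6 and 50.1 CPM against 20.9 and 21.3 CPM. These 4 hairpins, which lie in both parts of the block, had log2 ratios from -1.42 to -1.22. Mir297c lies between Mir467d and Mir669c and overlapped between ages, at 6.96 and 8.25 CPM against 4.44 and 12.4 CPM. Mir669i, the last of the 12, was the exception above, at 1.33 and 2.28 CPM against 4.54 and 6.51 CPM. Reads in exactly 1 hairpin summed to a log2 ratio of -1.09 and reads in 2 or more to -1.05.

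**Figure D3:**
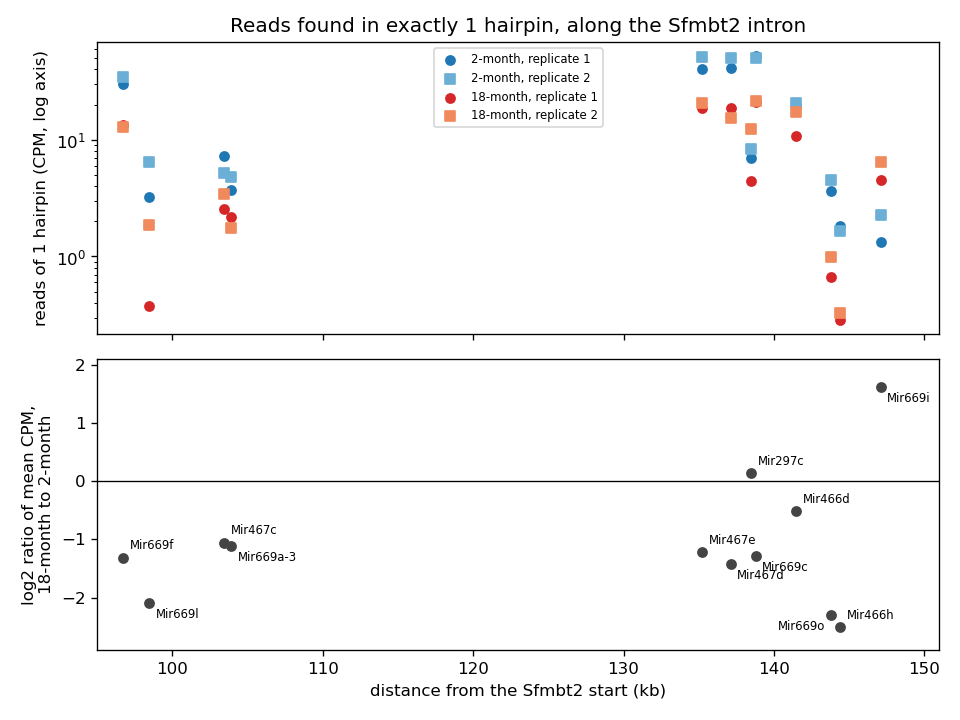
Reads found in exactly 1 hairpin for the 12 hairpins that averaged at least 1 CPM, by distance from the Sfmbt2 start in kb. The top panel gives the level in each library (CPM, log axis) and the bottom panel the log2 ratio of the mean CPM at 18 months to that at 2 months, which is below 0 for 10 hairpins and above 0 for Mir297c and Mir669i.

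No read of the table was named as a fragment of an Sfmbt2 transcript, so the level of the host gene was not measured here. Short of that, 87 sequences named for a hairpin of the 4 numbers but for no mature miRNA were present in all libraries, with 49.97 and 50.7 CPM in young brains against 30.1 and 25.5 CPM in old ones.

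Other groups of miRNAs, chosen for their likeness in arrangement or sequence, are given for comparison. Of 9 tested names of the Clcn5 intron cluster, another miRNA cluster inside an intron, none was called lower and 1 higher (median log2 change -0.08). Of 49 tested names of the distal Dlk1-Dio3 cluster, an imprinted and brain-enriched miRNA cluster, 13 were called lower and none higher (median -0.42), and 7 were lower after rescaling. A short list of other miRNAs with TG or CA repeats, picked by number, held 2 names. The 1 of them that was tested was not called (log2 difference -0.22). The 16 other names whose leading sequence had TGTGTG or CACACA were not compared as a group. The difference between these groups and the members was not tested.

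The 5p share of member reads was lower in both old libraries. The 5p arm held 58.4% and 62.3% of the member reads at 2 months and 52.6% and 56.9% at 18 months, a difference of -5.60 percentage points with SDs of 2.79 and 3.003 (n = 2 each) and no overlap. The difference was -3.62 points without 2-month replicate 2, -3.47 without 18-month replicate 1, and -7.57 and -7.72 without 2-month replicate 1 and 18-month replicate 2. Summed 5p reads had a ratio of 0.435 and summed 3p reads 0.533. By number, the 5p and 3p ratios were 0.417 and 0.593 in miR-467 and 0.407 and 0.499 in miR-669. They were 0.586 and 0.565 in miR-466 and 1.006 and 0.776 in miR-297, so a lower 5p ratio was not shared by all 4 numbers. Read lengths were alike: 21 to 23 nt made up 90.5% and 91.2% of member reads at 2 months and 90.3% and 89.8% at 18 months, as for mature miRNAs cut by Dicer.

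The share of reads with the leading seed was also alike. A read without that seed can have a shifted 5′ end or a base difference within the seed. The shares here do not separate them. Reads with the seed of the leading sequence of their name made up 81.4% and 82.0% at 2 months and 80.7% and 82.5% at 18 months, a difference of -0.08 points that was smaller than the SDs of 0.41 and 1.32 (n = 2 each). Names differed in this: 97.8% of miR-669c-5p reads and 84.8% of miR-467a-5p reads had the seed of the leading sequence, but only 52.7% of miR-467e-5p reads did.

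By seed, the members form a few large groups. The 6mer AAGUGC was carried by miR-467a-5p, miR-467b-5p, miR-467c-5p and miR-467d-5p and accounted for 28.5% of the mean member level. CAUAAC, that of miR-669a-3p/miR-669o-3p and miR-669a-3-3p, accounted for 18.9%, and AUACAU, led by miR-466d-3p, for 7.91%. UAUACAU, as a 7mer, headed the leading sequences of 9 names, most of them 3p arms of miR-467 and miR-669.

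Members supplied most of the reads with some seeds and few of those with others. Members gave 91.7% of all reads in the table with the seed AAGUGC. Member reads with it stood at 285 and 340 CPM at 2 months against 117 and 131 CPM at 18 months, and all reads with it at 305 and 357 CPM against 135 and 155 CPM. Members gave 94.3% of the reads with CAUAAC and 96.5% of those with UAGUUG, the seed of miR-669c-5p. By contrast, members gave 7.74% of the reads with UAUACA, and 3p arms of let-7 gave 78.4%.

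Member seeds scored high for 6mer seed viability. The score of AAGUGC was 81.9%, of AUACAU 90.7%, of UAGUUG 86.4%, of UAAGUG, the miR-467e-5p seed, 84.2% and of CAUAAC 64.7%. Weighted by reads, the mean over the members was 73.8% and 73.2% at 2 months and 73.3% and 72.9% at 18 months, against 57.8% and 58.0% and then 58.1% and 58.5% over all miRNA reads. Seeds of at least 70% viability made up 58.6% to 61.2% of member reads per library and 24.8% to 26.1% of all miRNA reads. Within the members, the mean at 18 months minus that at 2 months was -0.34 points, beside SDs of 0.39 and 0.27 (n = 2 each). The weighted median over the members was 81.9% in both 2-month libraries and 80.7% in both 18-month libraries. Over all miRNA reads it was 57.3% in every library. The value of 81.9% is the score of AAGUGC and that of 80.7% the score of UAUACA, and the difference was not tested.

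**Figure D4:**
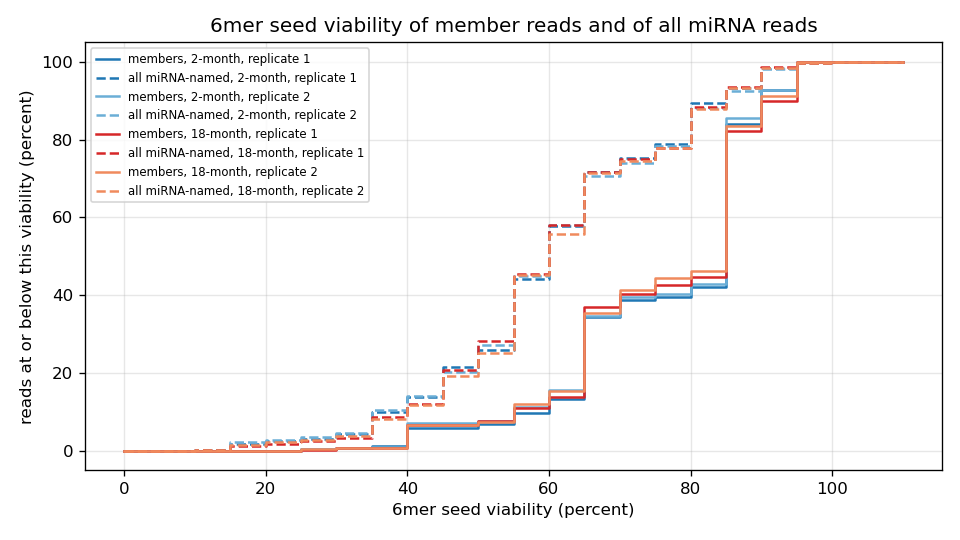
Cumulative percentage of reads at or below a 6mer seed viability, in steps of 5 points, for the members (solid) and for all miRNA reads (dashed) in each library. The member curves lie to the right, with 58.6% to 61.2% of reads at 70% or more against 24.8% to 26.1%, and the 4 libraries nearly coincide.

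Of the reads without an exact hairpin match, which averaged 139 CPM at 2 months and 67.3 CPM at 18 months, 76.8 and 37.7 CPM matched once 1 to 3 bases were removed from the 3′ end. When the first 18 bases were compared with every annotated miRNA hairpin, 93.2% to 94.97% of member reads per library matched exactly and 4.51% to 6.23% had a single difference. Of the reads with a single difference, 98.0% had an A-to-G change, in 41 of 48 sequences. Most carried A3G, where positions are counted from 1 at the 5′ end and the base of the hairpin is written first. A3G averaged 33.2 CPM, A4G 4.09 CPM, A2G 1.72 CPM and A1G 1.30 CPM.

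A3G lies within the seed and was found mainly in miR-467 5p reads. The leading sequences with it were these, with the seed in capitals as before.
miR-467a-5p with A3G: tAGGTGCCtgcatgtatatgcg
miR-467d-5p with A3G: tAGGTGCGcgcatgtatatgcg
miR-467c-5p with A3G: tAGGTGCGtgcatgtatatgt
The difference replaces the 6mer AAGUGC with AGGUGC, whose viability score is 38.5% where that of AAGUGC is 81.9%. Members gave 78.1% of all reads in the table with AGGUGC.

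Reads with A3G were fewer in both old libraries but made up a larger share of miR-467 5p reads there. They stood at 40.2 and 49.7 CPM at 2 months and at 22.04 and 20.6 CPM at 18 months. Of the reads named miR-467a-5p to miR-467d-5p with at most this difference, 11.9% (of 3389 reads, 95% Wilson interval 10.8% to 13.0%) and 12.1% (of 4402 reads, 11.2% to 13.1%) carried it at 2 months. At 18 months the shares were 15.6% (of 1472 reads, 13.9% to 17.6%) and 13.5% (of 1375 reads, 11.8% to 15.4%). The means were 11.97% ± 0.158 and 14.6% ± 1.48 (SD, n = 2 each), both old libraries lay above both young ones, and the exact permutation test could again reach no two-sided p under 0.3333. The interval of 18-month replicate 2 overlapped those of the 2-month libraries.

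The share differed between the names. In miR-467a-5p it was 10.8% and 11.6% at 2 months against 14.9% and 13.7% at 18 months. In miR-467d-5p it was 18.3% and 16.2% against 20.7% and 15.6%, with overlap. miR-467c-5p had the highest shares, 37.5% and 32.8% against 52.4% and 39.3%, on 21 to 88 reads per library. No read named miR-467b-5p carried it (0 of 69 to 205 reads per library), but its leading sequence is a shortened miR-467a-5p, so that reads of the 2 names with A3G cannot be told apart. Within the first 18 bases, single differences were at positions 1 to 6. Only sequences already named as members by BLAST were compared, so reads that a difference left unnamed were not seen. Only annotated miRNA hairpins were compared, so a copy elsewhere in the genome with G at this position was not looked for. The source of the A-to-G differences was not tested.

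**Figure D5:**
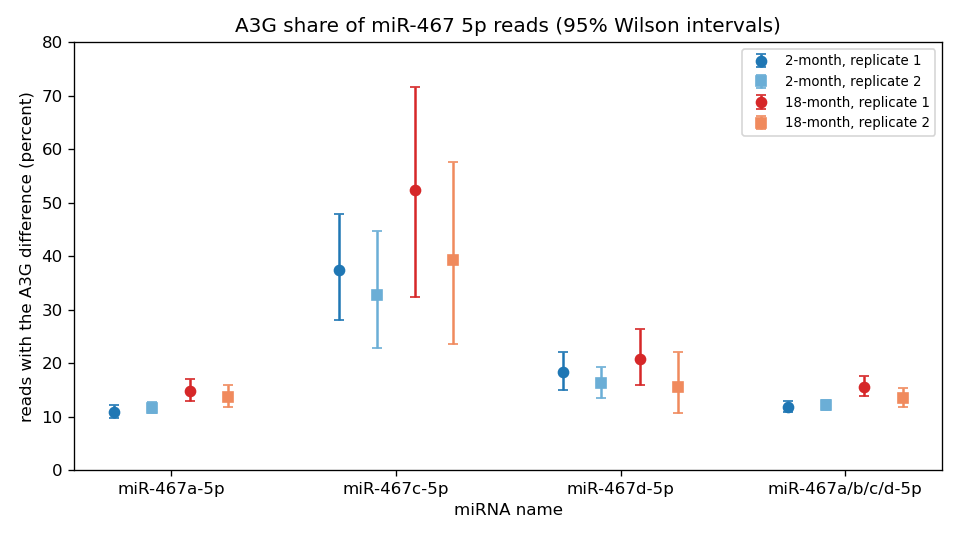
Percentage of reads with A3G among miR-467a-5p, miR-467c-5p, miR-467d-5p and all reads named miR-467a-5p to miR-467d-5p in each library, with 95% Wilson intervals that cover counting error. In the pooled group the 2-month libraries are at 11.9% and 12.1% and the 18-month libraries at 15.6% and 13.5%.

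Markers of the tissue were present in every library: the summed neuronal miRNAs miR-124-3p, miR-9-5p, miR-128-3p and miR-138-5p were at 195684 and 208820 CPM in young against 204748 and 178482 CPM in old brains. Summed miR-219a-2-3p and miR-338-3p of oligodendrocytes were at 6565 and 5180 against 4119 and 6365 CPM. Summed blood markers (miR-451a, miR-144-3p and miR-486a-5p) were at 1994 and 3566 against 1846 and 2952 CPM, and 5 immune markers at 3142 and 3569 against 2771 and 2902 CPM. The endothelial miR-126a-3p was lower with age, at 9242 and 8854 CPM against 2557 and 6489 CPM (limma log2 change -1.15, unadjusted p 0.0345), and its part in the change of the members was not tested. The choroid plexus marker miR-204-5p was at 2100 and 2623 against 2256 and 2786 CPM, the liver marker miR-122-5p at 5.01 to 7.11 CPM in all libraries, and the muscle miRNAs miR-1a-3p and miR-133a-3p summed to 150 to 230 CPM. Of these, miR-133a-3p was higher with age, at 104 and 54.96 against 129 and 147 CPM (limma log2 change 0.86, unadjusted p 0.0395), and its part was not tested either. miR-1a-3p was at 89.8 and 95.4 against 62.2 and 83.3 CPM (log2 difference -0.36, unadjusted p 0.183).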

How the data were processed

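Per the paper's methods, Ago1 to Ago4 were pulled down from cortex and hippocampus with the Flag-GST-T6B peptide and sequenced on an Illumina HiSEQ4000. The labels give a gel cut of 19 to 35 nt, and the deposited sequences are 15 to 33 nt long. Reads were trimmed (Trim Galore, version not given in the sources used here), rare reads were removed, and the rest were named by BLAST against mouse small RNAs in the SPOROS pipeline. The deposited values are CPM: the authors scaled each library to 1000000 reads. The deposited table also gives each sequence's 6mer seed viability, a score in percent.

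Ages and replicate numbers come from the labels. CPM values were whole multiples of 1 read (100% of values, within 0.00055 CPM), so the reads of 10484940, 11388999, 10575081 and 9067007 per library were recovered. CPM were summed per miRNA name and tested with limma 3.58.1 (trend) on log2(CPM + 1), for names averaging at least 10 CPM and sequences at least 1 CPM. edgeR 4.0.16 and DESeq2 1.42.0 were run on the recovered reads as alternatives. On simulated data for 456 names, limma called 100% of 200 names changed 4-fold and 3.91% of the unchanged ones. Sequences were matched exactly to GENCODE M21 hairpins (GRCm38); sequences shown are the deposited reads, and hairpin sequences are not reported here. Named members are the 12 most abundant, those called without overlap, and the leading name of each number and arm. The members and lists were chosen with earlier results of these data known.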

Additional observations from a re-analysis of the deposited data

Results flagged for a closer look

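One signal lay outside the members. Reads named for a hairpin of miR-297, miR-466, miR-467 or miR-669 but for no mature miRNA were above the limit of 3 reads that a count of 0 allows (0.263 to 0.331 CPM) in every library. Their 87 sequences summed to 49.97 CPM in 2-month replicate 1, 50.7 CPM in 2-month replicate 2, 30.1 CPM in 18-month replicate 1 and 25.5 CPM in 18-month replicate 2. The difference between the ages was not tested. With 2 libraries a group, no library was examined for standing apart within its age.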

How the results depend on the processing

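The alternatives moved counts mainly through what was tested. Lower calls among member names went from 12 to 23 with no filter, 21 at a mean of at least 1 CPM, 2 of 2 at 100 CPM and 0 at adjusted p. Beside these, 12.1%, 9.04%, 11.4%, 10.6% and 0.219% of all names were called lower. Higher calls went from 0 to 1 with no filter (3.11% of all names) or at 1 CPM (25 of 696 names). Lower calls among member sequences went from 46 to 70 with no filter, 11 at 10 CPM and 0 at adjusted p. Over all sequences the shares were 4.23%, 1.73%, 5.48% and, at adjusted p in either direction, 0.042%. Higher calls went from 1 to 2 with no filter, 0 at 10 CPM and 0 at adjusted p. Over all sequences, 838 of 14287 were called higher in the main fit, 1843 of 85704 with no filter and 252 of 3141 at 10 CPM. Leaving out 1 library gave 9 to 12 lower and 0 higher names, and 29 to 42 lower and 1 to 2 higher sequences; the lone library of its age is then assumed to vary like the others. Rescaling by the median of ratios took the log2 ratio of all members from -1.06 to -0.85, of miR-467 from -1.22 to -1.01 and of miR-669 from -1.06 to -0.85. The other alternatives kept each count within 1.5 times its value and each level, share and viability within the replicate spread. Same-numbered libraries deviated together (r = 0.18 over 456 names, 0.40 over 16 members), but the labels tie the numbers to no shared animal or batch. With the replicate block, limma called 12 member names lower, against 14.5% of all names. These left out miR-466h-3p (p 0.0532) and miR-467a-3p (p 0.0722) but took in miR-669d-5p (p 0.0252) and miR-466c-5p (p 0.0237). It also called 48 member sequences lower and 1 higher, against 639 lower and 891 higher of all 14287 sequences. edgeR with the replicate block, added after seeing the data, called 11 member names lower, against 7.46% of all names. The A3G settings were also added then: 16 or 20 bases gave differences of 2.6 and 2.76 points, and leaving out 1 library 1.55 to 3.65. Changes under 4-fold were not simulated, and 20 names averaged under 1 CPM, which stood for 9.07 to 11.4 reads.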
